A study of Mus musculus with 55 samples.

Results

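The comparison described here sets the livers of OTC mice given a hairpin that targets Gls2 (sh-Gls2, 10 libraries) against those of OTC mice given a hairpin that targets Glud1 (sh-Glud1, 8 libraries). These 18 libraries, chosen by strain and vector, are part of a series of 55 RNA-seq libraries of male mouse liver. The animals called OTC, B6EiC3Sn a/A-Otcspf-ash/J, have an Otc variant on the X chromosome. In both groups an adeno-associated virus that encodes a short hairpin RNA was given by vein at week 0 to mice 4 months old, a diet of 40% protein followed from week 2, and the liver was taken at week 5. A further 8 OTC mice received a scrambled hairpin (OTC control) under the same protocol, and 10 sh-Gls2 and 9 sh-Glud1 mice of the wild-type hybrid B6EiC3SnF1/J (WT) gave a second set of the same comparison. WT mice differ from OTC mice in strain background as well as in Otc. Each target had 1 vector, so lowering the target and any other action of that vector cannot be told apart. The sources used here do not give the hairpins' sequence or promoter. Each library came from its own mouse, per its number in the labels.

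Gls2 encodes the mitochondrial glutaminase of periportal hepatocytes, which splits glutamine into glutamate and ammonia. Glud1 encodes glutamate dehydrogenase, the mitochondrial enzyme that converts glutamate to 2-oxoglutarate and releases ammonia. The urea cycle turns this ammonia into urea in periportal hepatocytes, and pericentral hepatocytes capture what escapes by making glutamine. Ornithine transcarbamylase, the product of Otc, joins carbamoyl phosphate to ornithine within that cycle, and its loss leads to a high blood ammonia.

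The targeted genes behaved as the vector names say in every library. Gls2 (ENSMUSG00000044005.13, chr10:128194457-128210004, plus strand, GRCm38) was at 159 to 236 CPM (median 201) in sh-Gls2 livers and 324 to 527 CPM (median 435) in sh-Glud1 livers, against a median of 449 CPM in OTC control livers. All 10 sh-Gls2 livers lay below all 8 sh-Glud1 livers, with a log2 fold change of sh-Gls2 over sh-Glud1 of −1.13 ± 0.10 (SE, edgeR adjusted p = 1.6e-12). Glud1 (ENSMUSG00000021794.16, chr14:34310727-34345265, plus strand) was at 933 to 1181 CPM (median 1053) in sh-Gls2 livers and 282 to 588 CPM (median 456) in sh-Glud1 livers, and at a median of 1058 CPM in OTC control livers. Here all sh-Gls2 livers lay above all sh-Glud1 livers, with a log2 fold change of 1.25 ± 0.13 (adjusted p = 2.1e-11). Gls2 averaged 198 ± 23.9 CPM in sh-Gls2 livers, 434 ± 66.3 CPM in sh-Glud1 livers and 439 ± 84.4 CPM in OTC control livers (SD, n = 10, 8 and 8). Glud1 averaged 1055 ± 77.9 CPM in sh-Gls2 livers, 444 ± 105 CPM in sh-Glud1 livers and 1068 ± 121 CPM in OTC control livers. CPM is the count scaled to library size, with TMM factors between libraries. Otc itself was at 59.5 to 87.2 CPM (median 75.4) in sh-Gls2 livers and 51.6 to 74.5 CPM (median 55.1) in sh-Glud1 livers, a difference of 0.37 ± 0.08 (adjusted p = 0.00045) with ranges that overlap, and this call was lost among the mice numbered 44 and below (adjusted p = 0.264). Alb, which encodes albumin, the main secreted protein of hepatocytes, was at 63991 to 86438 CPM (median 75191) in sh-Gls2 livers and 66350 to 93083 CPM (median 73062) in sh-Glud1 livers (−0.01 ± 0.10, adjusted p = 0.94).

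**Figure D1:**
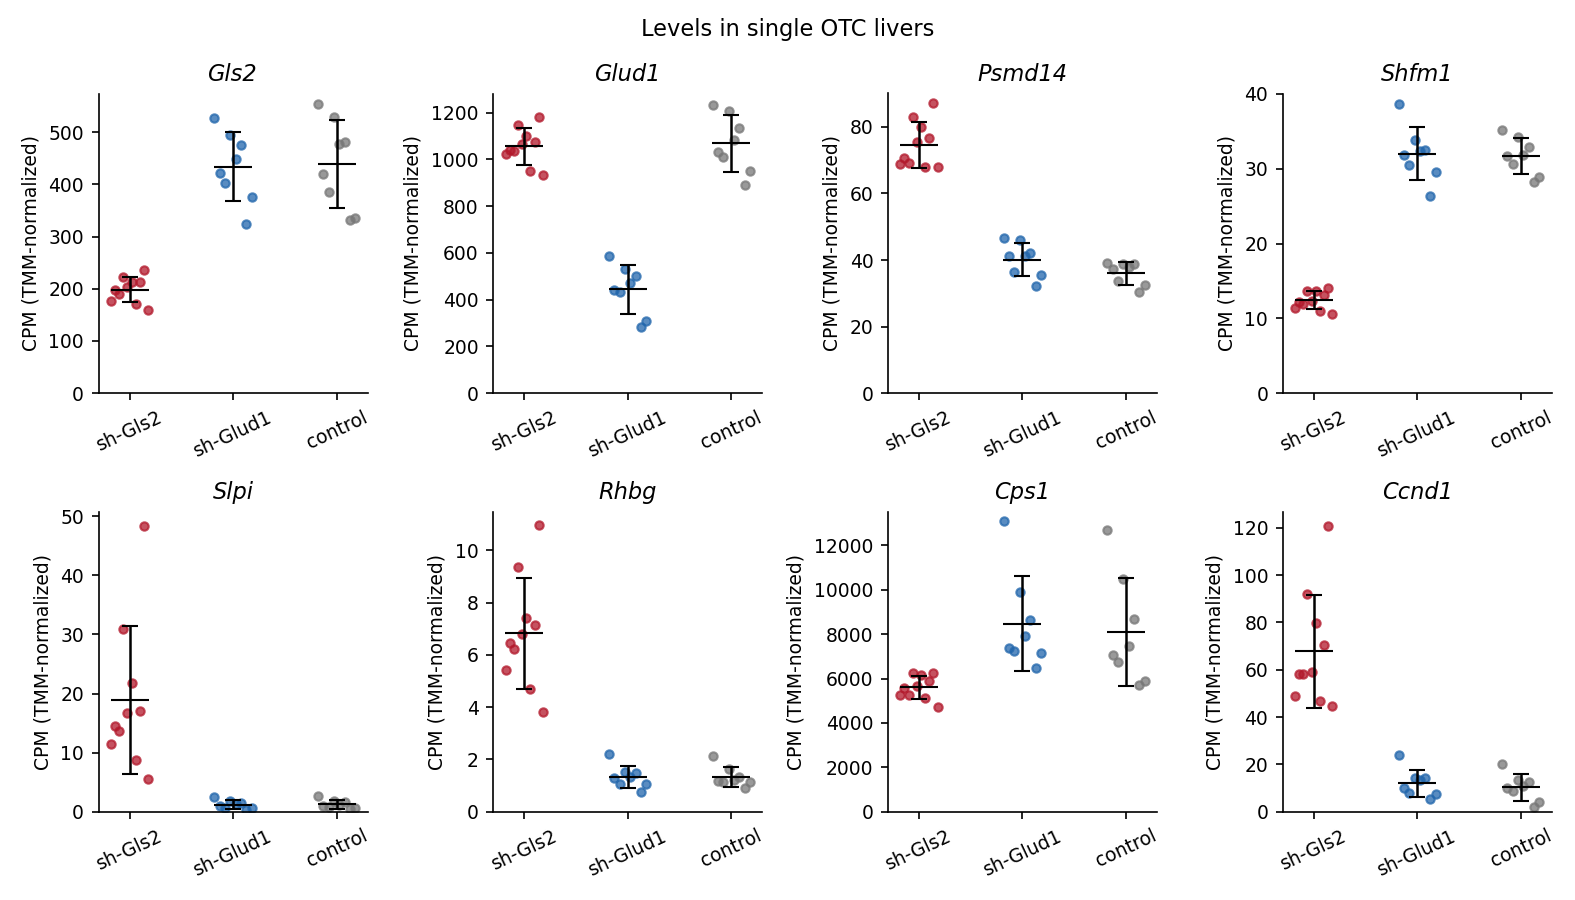
Levels of 8 genes in single OTC livers, in TMM-normalized CPM. Each point is 1 mouse, with sh-Gls2 (n = 10) left, sh-Glud1 (n = 8) in the middle and control (n = 8) right, and the bars give the mean and SD. For Psmd14, Slpi, Rhbg and Ccnd1 all sh-Gls2 livers lie above all sh-Glud1 livers, and for Shfm1 and Cps1 all lie below.

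The libraries held 15033685 to 21017325 counts (median 19613457) under sh-Gls2 and 15720335 to 22672786 counts (median 17760650.5) under sh-Glud1. On the first principal component of the 18 libraries, which held 29.1% of the variance, sh-Gls2 livers had scores of 14.3 to 34.5 and sh-Glud1 livers scores of −38.6 to −18.7. On the second, which held 15.8%, sh-Glud1 mice 42 and 44 lay at one end and sh-Glud1 mice 58 and 65 at the other. Mice 58 and 65 had the highest summed levels of urea cycle genes and of amino acid catabolism genes of all 18 libraries. Mice 42 and 44 had summed levels of male-biased liver genes above those of the 6 other sh-Glud1 libraries. Counts of called list members that fall by over 1.5 times without these 4 libraries are given with and without them, a choice made after the data were seen. Some counts are also given within mouse numbers, for the mice numbered 44 and below (5 sh-Gls2, 4 sh-Glud1) and 45 and above (5 sh-Gls2, 4 sh-Glud1), since the labels give no other marker of a batch and do not say that the number marks one. Each of these parts holds fewer mice than the whole and calls fewer genes in all. The spread between mice was larger under sh-Glud1, with a median SD of log2 CPM over genes of 0.194 under sh-Gls2 and 0.25 under sh-Glud1.

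The hairpins gave livers that differed in 5395 of 13311 tested genes (40.5%) in edgeR. Of these 2593 (19.5% of tested genes) were higher and 2802 (21.1%) were lower under sh-Gls2, and the median log2 fold change over all tested genes was −0.02. Strong differences were mostly upward. A difference of at least 2-fold was called upward for 449 genes (3.37%) and downward for 117 (0.879%). All 10 sh-Gls2 livers were above all 8 sh-Glud1 livers for 443 genes (3.33%) and below them for 404 (3.04%). Without sh-Glud1 mice 42, 44, 58 and 65 together the number of called genes was 3557, with 1723 higher and 1834 lower. Each hairpin was also set against the scrambled control. Against OTC control 5690 genes (42.7%) were called under sh-Gls2, 2685 (20.2%) higher and 3005 (22.6%) lower, and 2 genes (0.015%) under sh-Glud1, with 639 genes (4.8%) at an unadjusted p below 0.05 in the second case. These comparisons share the 8 control libraries. The 2 genes called under sh-Glud1 were Glud1 (−1.27, adjusted p = 3.7e-09) and the processed pseudogene Gm3219 (−0.92, adjusted p = 0.0074). Gm3219 (chr14:34345281-34345583, plus strand) starts 15 bases beyond the annotated end of Glud1 on the same strand, so reads near that end may not be told apart. Between the hairpins Gm3219 differed by 1.13 ± 0.16.

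**Figure D2:**
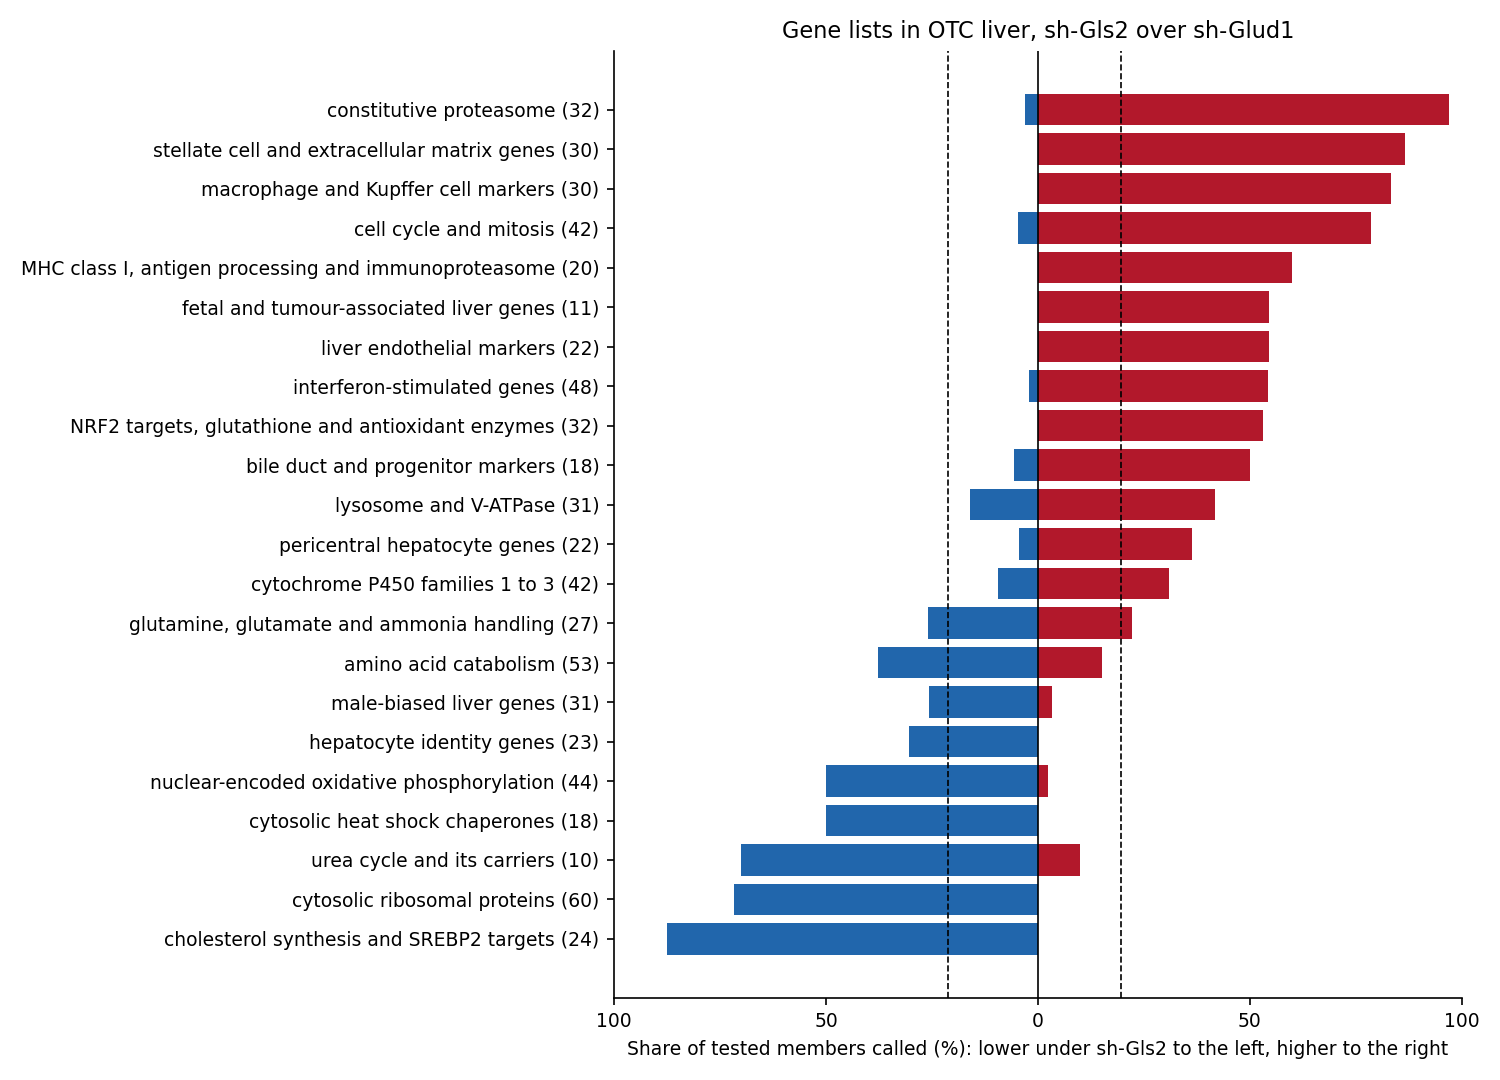
Share of the tested members of 22 gene lists that were called higher (right) or lower (left) under sh-Gls2 than under sh-Glud1 in OTC liver, with the number of tested members in brackets. The dashed lines mark the shares over all tested genes, 19.5% higher and 21.1% lower, and the shares run between 96.9% of proteasome genes higher and 87.5% of cholesterol genes lower.

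Genes of the proteasome, the protease complex that degrades ubiquitin-tagged proteins, were the list with the largest share of members called. Of the 32 tested genes of the constitutive proteasome, 31 were higher under sh-Gls2 and 1 was lower, against 19.5% and 21.1% of all tested genes, and the median log2 fold change was 0.45. The ranges of the groups did not overlap for 24 of the 31 higher genes and for the 1 lower gene. Over all tested genes, all sh-Gls2 livers were above all sh-Glud1 livers for 3.33% and below them for 3.04%. Summed over the list, levels were 3178 to 3606 CPM in sh-Gls2 livers and 2309 to 2627 CPM in sh-Glud1 livers. Psmc6, an ATPase of the regulatory particle that unfolds substrates, was at 118 to 139 CPM (median 127) in sh-Gls2 livers and 69.6 to 85.7 CPM (median 80.1) in sh-Glud1 livers. Its log2 fold change was 0.70 ± 0.05 (adjusted p = 1.2e-17), and its lowest sh-Gls2 liver was far above its highest sh-Glud1 liver. Psmd14, the subunit that removes ubiquitin chains, had the largest difference of the list, at 67.8 to 87.2 CPM (median 73.1) in sh-Gls2 livers and 32.3 to 46.6 CPM (median 41.2) in sh-Glud1 livers (0.90 ± 0.07, adjusted p = 3.0e-15). Psmb7, a catalytic subunit of the core, was higher by 0.59 ± 0.04 (adjusted p = 3.1e-16), and Psmd2, a scaffold of the regulatory base, by 0.63 ± 0.05 (adjusted p = 6.4e-15).

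A pair of subunits of the regulatory lid went the other way. Psmd3 was at 42.2 to 55.6 CPM (median 49.4) in sh-Gls2 livers and 66.4 to 83.3 CPM (median 73.001) in sh-Glud1 livers, a log2 fold change of −0.60 ± 0.05 (adjusted p = 2.0e-14). Shfm1, named Sem1 in later annotation and a small subunit of the lid, was at 10.6 to 14.1 CPM (median 12.3) in sh-Gls2 livers and 26.4 to 38.6 CPM (median 32.1) in sh-Glud1 livers. Every sh-Gls2 liver was below every sh-Glud1 liver for both, and for Shfm1 the log2 fold change was −1.37 ± 0.08 (adjusted p = 1.8e-20), among the smallest p-values of all genes. OTC control livers had a median of 31.8 CPM of Shfm1, close to the level under sh-Glud1. Set against OTC control, the median over the proteasome list was 0.53 (log2) under sh-Gls2 and 0.05 under sh-Glud1.

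**Figure D3:**
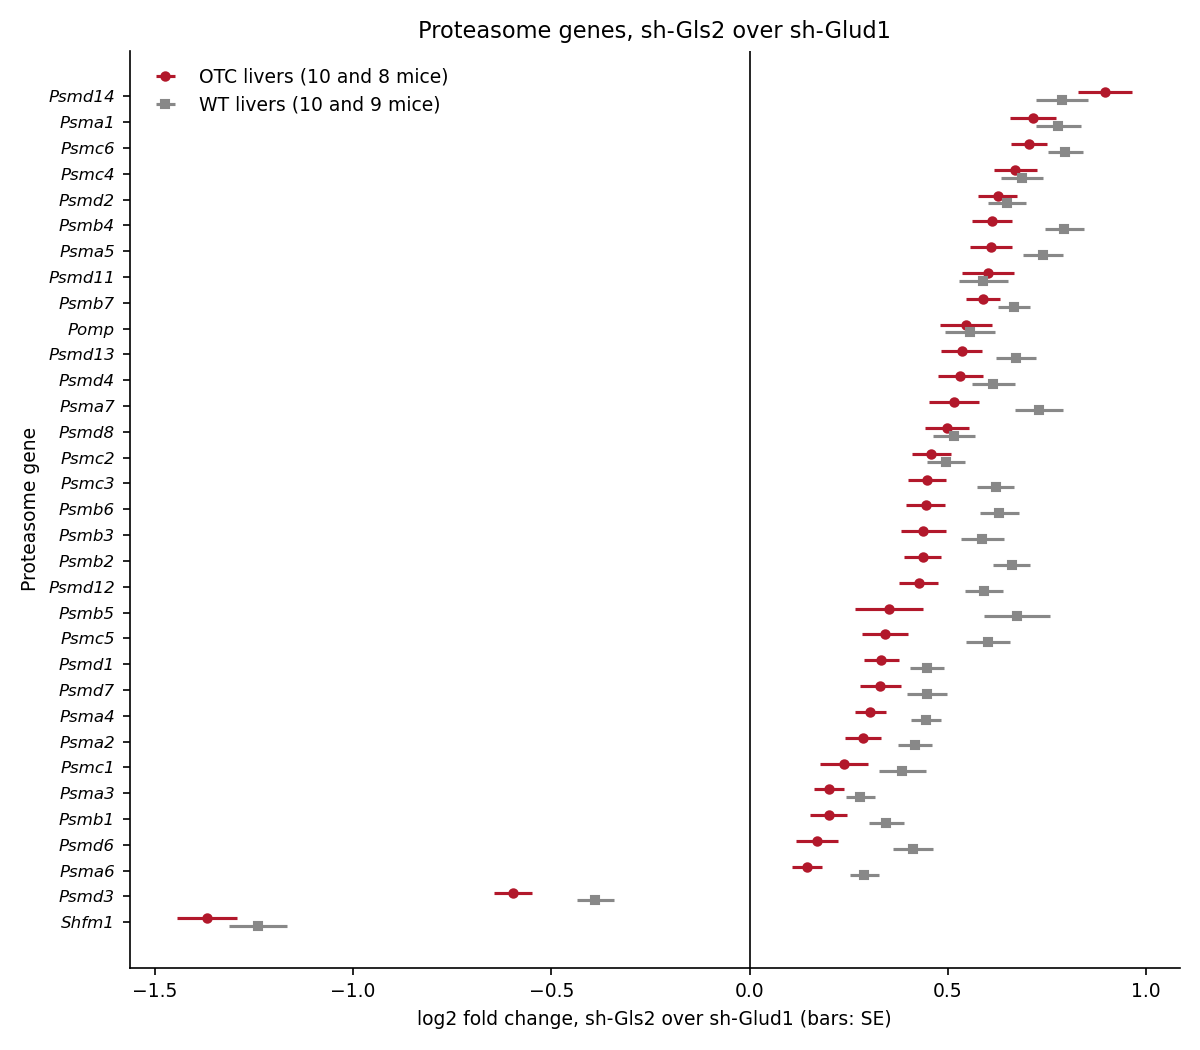
Log2 fold change of sh-Gls2 over sh-Glud1 with its standard error for the 32 listed genes of the constitutive proteasome and Shfm1, in OTC livers (circles, 10 and 8 mice) and WT livers (squares, 10 and 9 mice). In both strains 31 of the 32 listed genes lie to the right of zero, and Psmd3 and Shfm1 lie to the left.

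Proteasome genes and genes of the antioxidant response share a binding motif family for cap'n'collar factors such as NRF1 and NRF2, and the core TGACNNNGC was therefore looked up in RefSeq promoters (GRCm38.p6, the 250 bases before the start, on both strands, each motif searched on its own). It was in 4 of 26 proteasome promoters found (15.4%), near the 14.04% of those of tested genes. This and the later motif shares of tested genes cover the 10080 with a promoter found. Promoters of a single chromosome were left out of the search. All 4 of these genes were higher under sh-Gls2, as were all 22 without it. The stretches of Psmc6, whose motif lies on the strand opposite to the gene, and of Abcc4, an efflux transporter and NRF2 target described below, are shown to place the motif, in capitals, before the start. The motif begins 227 bases before the start of Psmc6 (chr14:45329574-45329655, plus strand) and 23 bases before one of the 2 RefSeq starts of Abcc4, which lies within the gene as GENCODE annotates it (chr14:118676932-118677004, minus strand). A match describes the letters and is not a measured binding site.
Psmc6: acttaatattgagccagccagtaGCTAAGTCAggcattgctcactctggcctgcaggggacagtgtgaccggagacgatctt
Abcc4: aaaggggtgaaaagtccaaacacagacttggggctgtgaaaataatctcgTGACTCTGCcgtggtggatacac

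NRF2 is the transcription factor that answers oxidants and electrophiles, and its targets make and use glutathione. Of 32 tested NRF2 targets and glutathione or antioxidant enzymes, 17 were higher under sh-Gls2 and none was lower (median 0.29). Gsr, which regenerates reduced glutathione, was at 101 to 142 CPM (median 115) in sh-Gls2 livers and 56.9 to 99.5 CPM (median 68.5) in sh-Glud1 livers, with no overlap (0.74 ± 0.08, adjusted p = 2.5e-10). Gss, the last enzyme of glutathione synthesis, was higher by 0.66 ± 0.08 (adjusted p = 1.1e-08). Ggt1, which starts the breakdown of extracellular glutathione, was barely expressed, at 0.725 to 7.66 CPM (median 1.196) in sh-Gls2 livers and 0 to 0.175 CPM (median 0.102) in sh-Glud1 livers, and every sh-Gls2 liver was above every sh-Glud1 liver (adjusted p = 2.0e-09). Slc7a11, the cystine importer, was at 0.387 to 2.83 CPM (median 0.658) in sh-Gls2 livers and 0 to 0.231 CPM (median 0.163) in sh-Glud1 livers (2.72 ± 0.45, adjusted p = 3.6e-06), again without overlap. Abcc4 was at 10.4 to 52.4 CPM (median 24.2) in sh-Gls2 livers and 1.52 to 6.37 CPM (median 3.62) in sh-Glud1 livers (2.82 ± 0.36, adjusted p = 1.6e-08). Without mice 42, 44, 58 and 65 the list had 8 higher genes, and 8 among mice numbered 44 and below. The motif TGACNNNGC was in 10 of 26 promoters of the list, of which 7 genes were higher, as were 6 of the 16 genes without it.

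Enzymes of drug metabolism were higher more often than lower. Of 19 glutathione S-transferase genes, 7 were higher and 3 lower, and of 42 cytochrome P450 genes of families 1 to 3, 13 were higher and 4 lower, against 19.5% and 21.1% of all tested genes. Members of these families share reads, so single values are uncertain. Gsta1 was at 78.2 to 245 CPM (median 130.0) in sh-Gls2 livers and 5.33 to 47.9 CPM (median 9.89) in sh-Glud1 livers, with no overlap (3.36 ± 0.39, adjusted p = 1.6e-09), and Gsta2 was higher by 1.91 ± 0.26 (adjusted p = 3.7e-08). Cyp2a12, a steroid hydroxylase, was at 559 to 856 CPM (median 674) in sh-Gls2 livers and 310.2 to 441 CPM (median 329.6) in sh-Glud1 livers (0.96 ± 0.09, adjusted p = 4.2e-12). Cyp2j6 was higher by 0.48 ± 0.08 (adjusted p = 2.9e-06), with ranges that overlap. Without mice 42, 44, 58 and 65 4 transferase genes and 8 P450 genes were higher.

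Genes of the cell cycle were much higher under sh-Gls2, from low levels. Of 42 tested genes of the cell cycle and mitosis, 33 were higher and 2 were lower, with a median log2 fold change of 1.49. Their summed level was 146 to 273 CPM in sh-Gls2 livers and 93.98 to 128 CPM in sh-Glud1 livers, without overlap. Ccnd1, the cyclin that drives entry into the cycle, was at 44.5 to 121 CPM (median 58.8) in sh-Gls2 livers and 5.17 to 23.8 CPM (median 11.7) in sh-Glud1 livers (2.51 ± 0.32, adjusted p = 1.8e-08). Its lowest sh-Gls2 liver was above its highest sh-Glud1 liver, and the OTC control median was 10.3 CPM. Mki67, which marks dividing cells, was at 1.45 to 15.6 CPM (median 5.302) in sh-Gls2 livers and 0.263 to 1.73 CPM (median 1.02) in sh-Glud1 livers (2.83 ± 0.39, adjusted p = 6.7e-08), and its ranges overlapped. Tpx2, a protein of the mitotic spindle, was at 0.226 to 3.79 CPM (median 1.35) in sh-Gls2 livers and 0.0438 to 0.228 CPM (median 0.118) in sh-Glud1 livers (3.58 ± 0.49, adjusted p = 6.6e-08), where the lowest sh-Gls2 liver was just under the highest sh-Glud1 liver. E2f1, a transcription factor of S-phase genes, was at 2.02 to 4.51 CPM (median 3.08) in sh-Gls2 livers and 0.845 to 1.85 CPM (median 1.26) in sh-Glud1 livers, with no overlap (1.33 ± 0.18, adjusted p = 5.4e-08). The lower members were Rrm1, a subunit of ribonucleotide reductase (−0.40 ± 0.11, adjusted p = 0.003), and Mcm7, a subunit of the replicative helicase (−0.39 ± 0.11, adjusted p = 0.0036). Many of these genes had under 1 TPM. The fit on log2(TPM + 1) gave 12 higher and 2 lower. It left out genes with a mean under 1 TPM, Mki67 and Tpx2 among them, so its counts cover fewer genes.

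Promoters of late cell cycle genes often hold the cell cycle genes homology region, with the core TTTGAA. This core was in 11 of 33 promoters of the list and in 13.3% of those of tested genes, and 10 of the 11 genes were higher. Of the 22 genes without it, 15 were higher and 2 lower. Mki67 holds it at 2 places in the stretch shown, the one nearer to the start 98 bases before it (chr7:135716422-135716527, minus strand), with both in capitals.
Mki67: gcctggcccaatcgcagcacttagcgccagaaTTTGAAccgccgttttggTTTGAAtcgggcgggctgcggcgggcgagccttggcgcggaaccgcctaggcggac

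Ammonia handling differed at single genes rather than as a list. Of 27 tested genes of glutamine, glutamate and ammonia handling, which include both targets, 6 were higher and 7 lower, shares of 22.2% and 25.9% that lie near those of all genes. Without sh-Glud1 mouse 65, 3 were lower, and 2 without mice 42, 44, 58 and 65. Rhbg, the ammonia transporter of pericentral hepatocytes, was at 3.804 to 10.96 CPM (median 6.62) in sh-Gls2 livers and 0.74 to 2.21 CPM (median 1.303) in sh-Glud1 livers, and at a median of 1.198 CPM in OTC control livers. No ranges overlapped between the hairpins, and the log2 fold change was 2.35 ± 0.20 (adjusted p = 1.6e-13). Slc7a8, a transporter of neutral amino acids that include glutamine, was at 4.14 to 7.66 CPM (median 5.51) in sh-Gls2 livers and 1.45 to 5.13 CPM (median 2.99) in sh-Glud1 livers (0.87 ± 0.17, adjusted p = 5.2e-05), with overlap. The call of Slc7a8 was lost among mice numbered 44 and below (0.52, adjusted p = 0.125). Glul, glutamine synthetase, did not pass the test, at 162 to 487 CPM (median 281) in sh-Gls2 livers and 60.5 to 517 CPM (median 312) in sh-Glud1 livers (−0.05 ± 0.23, adjusted p = 0.891).

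Genes of pericentral hepatocytes held Rhbg and 7 other genes that were higher, of 22 tested, and 1 that was lower. These shares, 36.4% and 4.55%, stand beside 19.5% and 21.1% of all tested genes. Among mice numbered 44 and below 3 genes of the list were higher. Slc13a3, a sodium-coupled carrier of dicarboxylates, was at 22.04 to 33.5 CPM (median 31.2) in sh-Gls2 livers and 4.12 to 12.1 CPM (median 6.97) in sh-Glud1 livers, without overlap (1.92 ± 0.20, adjusted p = 9.4e-11). Lect2, a secreted protein whose gene answers Wnt signals in pericentral cells, was at 65.9 to 106 CPM (median 85.7) in sh-Gls2 livers and 21.9 to 57.5 CPM (median 48.02) in sh-Glud1 livers (0.88 ± 0.17, adjusted p = 3.3e-05). Nkd1, an inhibitor and target of Wnt signalling, was higher by 0.50 ± 0.12 (adjusted p = 0.00068). Both calls, of Lect2 and Nkd1, were lost among mice numbered 44 and below. The lower gene was Cyp27a1, a sterol hydroxylase of mitochondria (−0.24 ± 0.09, adjusted p = 0.026), whose call was lost without any 1 of 5 libraries, sh-Gls2 mice 31 and 74 and sh-Glud1 mice 23, 53 and 58.

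Most urea cycle genes were lower under sh-Gls2, and Otc was higher. Of 10 tested genes of the list urea cycle and its carriers, 7 were lower and 1 higher (median −0.41), and their summed level was 12050 to 14860 CPM in sh-Gls2 livers and 14510 to 28810 CPM in sh-Glud1 livers. Cps1, which makes carbamoyl phosphate from ammonia, was at 4713 to 6264 CPM (median 5615) in sh-Gls2 livers and 6480.2 to 13092 CPM (median 7647) in sh-Glud1 livers, with no overlap (−0.59 ± 0.12, adjusted p = 0.00012). Arg1, which releases urea, was at 1028 to 1571 CPM (median 1175) in sh-Gls2 livers and 1363 to 3197 CPM (median 1786) in sh-Glud1 livers (−0.72 ± 0.15, adjusted p = 0.00015), with overlap. Ass1, which makes argininosuccinate, had a log2 fold change of −0.45 ± 0.13 (adjusted p = 0.0035), and Slc25a13, the carrier of aspartate and glutamate, one of −0.36 ± 0.08 (adjusted p = 0.00039). Asl, which cleaves argininosuccinate, was at −0.65 ± 0.22 (adjusted p = 0.017). It did not pass without mouse 58 or mouse 65. Without sh-Glud1 mice 58 and 65, 4 genes of the list were lower and the call of Ass1 was lost too. Without mice 42, 44, 58 and 65, 3 genes were lower, and 1 among mice numbered 44 and below. Cps1 was at −0.47 (adjusted p = 0.0084) without the 4 mice. Among mice numbered 44 and below the calls of Cps1 (−0.35, adjusted p = 0.0909) and Arg1 (−0.35, adjusted p = 0.248) were lost. The summed level was 28810 CPM in mouse 65 and 24290 CPM in mouse 58, against at most 18980 CPM in the other sh-Glud1 livers, and 2 OTC control livers reached 28830 and 28660 CPM.

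Catabolism of amino acids was also lower in part. Of 53 tested genes, 20 were lower (37.7%) and 8 higher (15.1%), against 21.1% and 19.5% of all tested genes. The counts were 13 lower and 9 higher without mice 42, 44, 58 and 65. They were 8 lower and 3 higher among mice numbered 44 and below. Ftcd, the enzyme that passes the formimino group of histidine to folate, was at 378 to 480.0 CPM (median 399) in sh-Gls2 livers and 498 to 626 CPM (median 559) in sh-Glud1 livers, with no overlap (−0.44 ± 0.07, adjusted p = 2.7e-06). Amdhd1, an earlier enzyme of histidine breakdown, was lower, at −0.65 ± 0.10 (adjusted p = 1.7e-06). Cbs, which commits homocysteine to cysteine synthesis, was at 328 to 419.8 CPM (median 369) in sh-Gls2 livers and 415 to 708 CPM (median 523) in sh-Glud1 livers (−0.59 ± 0.08, adjusted p = 1.3e-08). Mut, the methylmalonyl-CoA mutase, was lower, at −0.35 ± 0.06 (adjusted p = 5.4e-06).

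**Figure D4:**
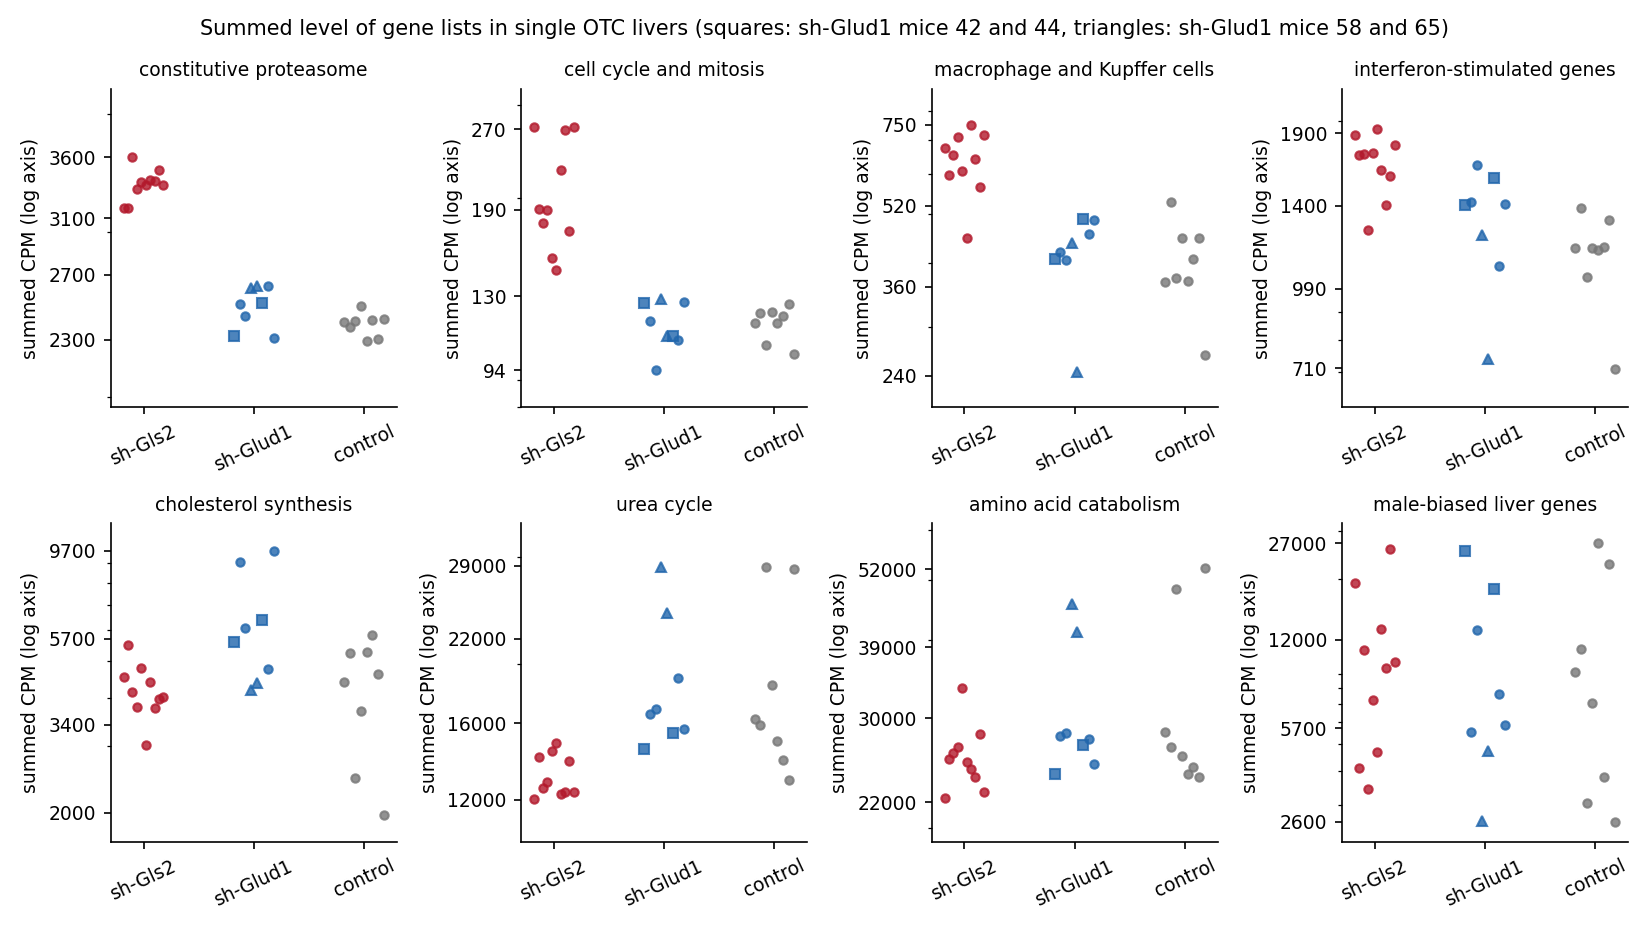
Summed level of 8 gene lists in single OTC livers, in CPM on log axes, with sh-Gls2 left, sh-Glud1 in the middle and control right. Squares mark sh-Glud1 mice 42 and 44 and triangles sh-Glud1 mice 58 and 65. Proteasome and cell cycle sums do not overlap between the hairpins, mice 58 and 65 have the highest urea cycle and amino acid catabolism sums of both hairpin groups, and the male-biased sums of the 3 groups overlap over nearly their whole ranges.

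Genes of cholesterol synthesis and other targets of SREBP2 were lower under sh-Gls2. Of 24 tested genes 21 were lower and none higher, with a median log2 fold change of −0.72 and summed levels of 3002 to 5500 CPM in sh-Gls2 livers and 4197 to 9686 CPM in sh-Glud1 livers. Against OTC control the medians were −0.11 under sh-Gls2, with 1 gene higher and 4 lower by edgeR, and 0.61 under sh-Glud1, with none of the 24 called. Ebp, a sterol isomerase, was at 109 to 160.1 CPM (median 137) in sh-Gls2 livers and 172 to 244 CPM (median 209) in sh-Glud1 livers, with no overlap (−0.60 ± 0.08, adjusted p = 8.3e-09). Srebf2, which encodes SREBP2, was at 39.99 to 52.4 CPM (median 46.8) in sh-Gls2 livers and 51.6 to 75.7 CPM (median 64.4) in sh-Glud1 livers (−0.45 ± 0.08, adjusted p = 6.9e-06). The mevalonate pathway kinase gene Pmvk was lower, at −0.97 ± 0.18 (adjusted p = 3.1e-05) and so was the sterol reductase gene Tm7sf2, at −0.75 ± 0.15 (adjusted p = 6.4e-05). Hmgcs1, which makes the precursor of mevalonate, was at 155 to 486 CPM (median 273) in sh-Gls2 livers and 175 to 1276 CPM (median 398) in sh-Glud1 livers (−0.88 ± 0.31, adjusted p = 0.021). That call was lost without sh-Glud1 mouse 53 or mouse 23, which had the highest sums of the list. Among mice numbered 45 and above 4 genes were lower, and 17 among those numbered 44 and below. The sterol regulatory element core TCACNCCAC was in 1 of 16 promoters of the list, that of Hmgcs1 (chr13:119690164-119690272, plus strand, from 137 bases before the start), and in 1.31% of those of tested genes. Of the 15 genes without it, 14 were lower.
Hmgcs1: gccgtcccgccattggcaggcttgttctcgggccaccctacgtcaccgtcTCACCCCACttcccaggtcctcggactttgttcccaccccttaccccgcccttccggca

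Interferon-stimulated genes, which act against viruses, were higher under sh-Gls2 for 26 of 48 tested members and lower for 1 (median 0.52). Ifit2, which binds viral RNA, was at 8.21 to 16.97 CPM (median 12.8) in sh-Gls2 livers and 2.76 to 6.49 CPM (median 5.45) in sh-Glud1 livers, with no overlap (1.29 ± 0.18, adjusted p = 5.5e-08). Trafd1, a regulator of innate signalling, was at 61.3 to 88.3 CPM (median 70.6) in sh-Gls2 livers and 37.4 to 52.3 CPM (median 47.05) in sh-Glud1 livers, also without overlap (0.66 ± 0.07, adjusted p = 2.4e-11). Parp12 was higher by 0.66 ± 0.09 (adjusted p = 1.8e-07) and Ifi27l2a by 1.38 ± 0.24 (adjusted p = 7.6e-06). Cxcl10, a chemokine that attracts T cells, was at 5.93 to 12.5 CPM (median 7.601) in sh-Gls2 livers and 1.05 to 5.23 CPM (median 2.805) in sh-Glud1 livers (1.43 ± 0.26, adjusted p = 1.4e-05), and all sh-Gls2 livers were above all sh-Glud1 livers. The lower gene was Stat2, a transducer of the interferon signal (−0.43 ± 0.13, adjusted p = 0.0047), which did not pass without mice 42 and 44. Without mice 42, 44, 58 and 65 the list had 15 higher and 2 lower genes, and 13 were higher among mice numbered 45 and above. The core of the interferon-stimulated response element, GAAANNGAAA, was in 12 of 34 promoters of the list and in 3.36% of those of tested genes. Of the 12 genes 7 were higher and 1 lower, and of the 22 without it 14 were higher. Cxcl10 holds it 213 bases before the start (chr5:92349043-92349139, minus strand).
Cxcl10: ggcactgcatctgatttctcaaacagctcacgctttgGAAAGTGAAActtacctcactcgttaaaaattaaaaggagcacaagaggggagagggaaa

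Genes of antigen presentation by MHC class I were higher for 12 of 20 tested members and lower for none. B2m, the light chain of class I, was at 994 to 1247 CPM (median 1148) in sh-Gls2 livers and 794 to 1048 CPM (median 949) in sh-Glud1 livers (0.29 ± 0.06, adjusted p = 0.00031). Tapbp, which loads peptides, was higher by 0.43 ± 0.07 (adjusted p = 3.5e-06). The count was 3 among mice numbered 44 and below, and classical class I genes share reads. Of 9 tested class II genes, which antigen-presenting cells express, 4 were higher. That count was 0 without the 4 sh-Glud1 mice 42, 44, 58 and 65, 2 without mouse 58, 65 or 71 alone, and 9 among mice numbered 45 and above.

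Many markers of cells other than hepatocytes were higher in the sh-Gls2 livers, and in whole liver more cells of a type and more RNA per cell cannot be told apart. Of 30 markers of macrophages and Kupffer cells, the resident macrophages of liver, 25 were higher and none lower (median 0.70). Their summed level was 448 to 748 CPM in sh-Gls2 livers and 245 to 489 CPM in sh-Glud1 livers. Cd68, a lysosomal protein of macrophages, was at 9.92 to 16.4 CPM (median 12.3) in sh-Gls2 livers and 4.34 to 8.54 CPM (median 7.16) in sh-Glud1 livers, with no overlap (0.89 ± 0.13, adjusted p = 2.3e-07). Ctss, a protease of antigen-presenting cells, was higher by 0.90 ± 0.15 (adjusted p = 4.1e-06), and Vsig4, a complement receptor of Kupffer cells, by 0.70 ± 0.12 (adjusted p = 6.3e-06). Itgax, an integrin of dendritic cells and some macrophages, was at 1.13 to 2.39 CPM (median 1.82) in sh-Gls2 livers and 0.0876 to 1.184 CPM (median 0.505) in sh-Glud1 livers (1.74 ± 0.32, adjusted p = 1.6e-05). Cd163, a scavenger receptor for haemoglobin, did not pass the test (−0.16 ± 0.24, adjusted p = 0.624). The count was 16 without mice 42, 44, 58 and 65 and 6 among mice numbered 44 and below.

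Stellate cells store vitamin A and make the matrix of the liver. Of 30 tested stellate cell and matrix genes, 26 were higher and none lower (median 0.63), with sums of 644 to 874 CPM in sh-Gls2 livers and 422 to 604 CPM in sh-Glud1 livers, which did not overlap. Bgn, a matrix proteoglycan, was at 70.7 to 97.7 CPM (median 89.1) in sh-Gls2 livers and 52.6 to 72.2 CPM (median 58.1) in sh-Glud1 livers (0.54 ± 0.08, adjusted p = 2.1e-07). Reln, a secreted marker of stellate cells, was higher by 0.79 ± 0.12 (adjusted p = 4.0e-07) and Lum, a collagen-binding proteoglycan, by 0.93 ± 0.16 (adjusted p = 8.6e-06). Col4a1, a collagen of basement membranes, was at 32.995 to 45.6 CPM (median 37.2) in sh-Gls2 livers and 17.4 to 26.8 CPM (median 21.4) in sh-Glud1 livers, with no overlap (0.81 ± 0.13, adjusted p = 1.6e-06). Acta2, the smooth muscle actin of activated stellate cells, did not pass the test, at 2.06 to 3.92 CPM (median 2.98) in sh-Gls2 livers and 1.85 to 3.97 CPM (median 2.87) in sh-Glud1 livers (0.03 ± 0.20, adjusted p = 0.912). Without the 4 named mice 17 genes were higher, and 13 among mice numbered 44 and below.

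Of 22 markers of liver endothelium, 12 were higher and none lower, with a small median of 0.26. Rspo3, an endothelial amplifier of Wnt signals, was at 5.15 to 8.79 CPM (median 8.36) in sh-Gls2 livers and 4.12 to 8.03 CPM (median 5.54) in sh-Glud1 livers (0.47 ± 0.10, adjusted p = 0.00014), and Fcgr2b, an antibody receptor of sinusoids, was higher by 0.41 ± 0.09 (adjusted p = 0.00043). The call of Rspo3 was lost without the 4 named mice. The count was 1 without the 4 named mice and 0 among mice numbered 44 and below. Of 18 markers of bile duct and progenitor cells, 9 were higher and 1 lower, with 6 higher without the 4 named mice. The count was 4 among mice numbered 44 and below and 4 on log2(TPM + 1). The TPM fit left out genes with a mean under 1 TPM, among them Pkhd1, Cldn4 and Ddr1. Pkhd1, a protein of cholangiocyte cilia, was at 6.93 to 13.5 CPM (median 10.996) in sh-Gls2 livers and 2.98 to 5.87 CPM (median 4.86) in sh-Glud1 livers, with no overlap (1.17 ± 0.16, adjusted p = 4.6e-08). Cldn4, a tight junction protein, was higher by 2.47 ± 0.38 (adjusted p = 8.7e-07), the receptor kinase gene Ddr1 by 1.26 ± 0.24 (adjusted p = 3.6e-05) and Prom1, a membrane protein of progenitors, by 3.15 ± 0.41 (adjusted p = 2.4e-08). Krt19, the keratin that defines bile ducts, did not pass the test, at 0.541 to 1.88 CPM (median 1.42) in sh-Gls2 livers and 0.432 to 1.74 CPM (median 1.06) in sh-Glud1 livers (0.18 ± 0.25, adjusted p = 0.585). The lower gene was Onecut2, a transcription factor of bile duct development (−0.24 ± 0.08, adjusted p = 0.016), and without sh-Glud1 mouse 53 it did not pass. The part of these cell types in the other differences was not tested.

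Genes of fetal liver and liver tumours were higher for 6 of 11 tested members and lower for none. Tff3, a secreted trefoil peptide, was at 8.28 to 33.5 CPM (median 17.2) in sh-Gls2 livers and 0.173 to 7.59 CPM (median 1.01) in sh-Glud1 livers, with no overlap (3.41 ± 0.52, adjusted p = 5.6e-07). Afp, which encodes alpha-fetoprotein of the fetal liver, was at 1.13 to 3.26 CPM (median 2.06) in sh-Gls2 livers and 0.345 to 1.56 CPM (median 0.703) in sh-Glud1 livers (1.48 ± 0.28, adjusted p = 3.7e-05), with overlap. Peg3, an imprinted zinc finger gene, was higher by 0.97 ± 0.25 (adjusted p = 0.0013), and the calls of Afp and Peg3 were lost among mice numbered 45 and above. Hepatocyte identity genes were lower for 7 of 23 and higher for none, and lower for 4 without sh-Glud1 mouse 53 and 3 without mice 42, 44, 58 and 65. Apoa1, the main protein of HDL, was at 3898 to 5899 CPM (median 5240.1) in sh-Gls2 livers and 6787 to 9590.2 CPM (median 7590.2) in sh-Glud1 livers, with no overlap (−0.65 ± 0.10, adjusted p = 1.4e-06).

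Many transcripts of ribosomes and mitochondria were slightly lower under sh-Gls2. Of 60 tested genes of cytosolic ribosomal proteins, 43 were lower and none higher, with a median of −0.28, and many have processed pseudogenes with which they share reads. Rpl3 was at 229.9 to 404 CPM (median 288) in sh-Gls2 livers and 406 to 590.4 CPM (median 513) in sh-Glud1 livers (−0.79 ± 0.09, adjusted p = 2.3e-10) and Rpl10 at 244 to 313 CPM (median 283) in sh-Gls2 livers and 394 to 505 CPM (median 436) in sh-Glud1 livers (−0.66 ± 0.06, adjusted p = 5.3e-13), both without overlap. Rpl28 was lower, at −0.57 ± 0.09 (adjusted p = 4.8e-07), and so was Rpl37, at −0.50 ± 0.08 (adjusted p = 1.3e-06). Without mice 42, 44, 58 and 65 30 were lower, and 4 among mice numbered 44 and below. Of 44 nuclear genes of oxidative phosphorylation, 22 were lower and 1 higher, and 11 were lower without mice 58 and 65, 8 without mice 42, 44, 58 and 65 and 2 among mice numbered 44 and below. Sdhd, a subunit of complex II, was at 151 to 178 CPM (median 171) in sh-Gls2 livers and 195 to 307 CPM (median 224) in sh-Glud1 livers (−0.47 ± 0.07, adjusted p = 8.8e-07), and Atp5o, of the ATP synthase, was lower, at −0.41 ± 0.08 (adjusted p = 2.0e-05). Of 18 cytosolic heat shock chaperones 9 were lower and none higher, and 3 without the 4 named mice. The list included Stip1, which links the chaperones HSP70 and HSP90 (−0.57 ± 0.10, adjusted p = 4.3e-06), and Hsf1, their transcription factor (−0.47 ± 0.08, adjusted p = 2.0e-06).

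Beside Shfm1 and Psmc6, the smallest p-values of all genes belonged to genes that were lower under sh-Gls2. Slc20a2, a phosphate importer, was at 28.99 to 35.6 CPM (median 31.7) in sh-Gls2 livers and 69.5 to 94.8 CPM (median 78.5) in sh-Glud1 livers, and OTC control livers had a median of 74.6 CPM. No range overlapped between the hairpins (−1.33 ± 0.07, adjusted p = 1.1e-21). Gnai3, an inhibitory G protein, was at 48.4 to 64.2 CPM (median 60.01) in sh-Gls2 livers and 97.1 to 113 CPM (median 107) in sh-Glud1 livers (−0.85 ± 0.06, adjusted p = 1.2e-17). Nlrp6, a NOD-like receptor, was at 57.9 to 96.3 CPM (median 71.3) in sh-Gls2 livers and 119.8 to 225 CPM (median 184) in sh-Glud1 livers (−1.31 ± 0.09, adjusted p = 1.2e-17). Lage3, a subunit of a complex that modifies transfer RNA, was at 2.43 to 4.09 CPM (median 3.096) in sh-Gls2 livers and 7.79 to 10.8 CPM (median 9.63) in sh-Glud1 livers (−1.59 ± 0.10, adjusted p = 1.7e-17). For all of these, every sh-Gls2 liver was below every sh-Glud1 liver. Among the higher genes Slc22a18, an imprinted transporter gene, was at 129 to 169 CPM (median 152) in sh-Gls2 livers and 67.8 to 84.7 CPM (median 80.4) in sh-Glud1 livers (0.92 ± 0.07, adjusted p = 1.1e-15). Ccdc120, which encodes a coiled-coil protein, was at 4.69 to 11.7 CPM (median 7.57) in sh-Gls2 livers and 0.845 to 1.92 CPM (median 1.27) in sh-Glud1 livers (2.56 ± 0.19, adjusted p = 1.1e-15), also without overlap.

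The largest upward fold changes were ranked among called genes averaging at least 1 log2 CPM over both groups, predicted names aside. Genes under that level, such as Ggt1 at 4.23, are not in this ranking. A gene can reach that level through its sh-Gls2 livers alone, so low levels under sh-Glud1 follow in part from the ranking. Ly6d, a surface protein of epithelial and lymphoid cells, was at 4.8004 to 25.3 CPM (median 11.6) in sh-Gls2 livers and 0 to 1.56 CPM (median 0.65) in sh-Glud1 livers (4.05 ± 0.64, adjusted p = 1.4e-06). Slpi, an inhibitor of leukocyte proteases, was at 5.48 to 48.3 CPM (median 15.6) in sh-Gls2 livers and 0.317 to 2.52 CPM (median 1.08) in sh-Glud1 livers (3.96 ± 0.35, adjusted p = 4.6e-13). Slc22a7, an organic anion transporter, was at 5.39 to 26.7 CPM (median 15.9) in sh-Gls2 livers and 0.263 to 3.38 CPM (median 1.23) in sh-Glud1 livers (3.25 ± 0.41, adjusted p = 1.0e-08). None of these ranges overlapped, nor did those of Pls1, an actin-bundling protein, at 24.1 to 56.99 CPM (median 37.1) in sh-Gls2 livers and 0.834 to 13.4 CPM (median 3.27) in sh-Glud1 livers (3.16 ± 0.36, adjusted p = 9.7e-10). Lrrc24 was higher by 3.5 ± 0.67 (adjusted p = 3.3e-05), and its sh-Gls2 livers fell into separate levels. Lrrc24 was at 0.103 and 0.12 CPM in sh-Gls2 mice 21 and 31, below all sh-Glud1 livers, and at 12.2 to 25.4 CPM in the other 8, above all sh-Glud1 livers, which reached 2.35 CPM. The highest set of 10 was completed by Tff3, Gsta1, Prom1, Mki67 and Abcc4, given above.

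Several of the lowest fold changes, ranked with the same minimum level, rested on few sh-Glud1 mice. Serpina1e, a protease inhibitor of a family that shares reads, was at 18.1 to 328 CPM (median 50.9) in sh-Gls2 livers and 19.1 to 2551 CPM (median 86.3) in sh-Glud1 livers (−2.79 ± 0.75, adjusted p = 0.0023). Sh-Glud1 mouse 44 had 2551 CPM and mouse 42 had 1922 CPM of Serpina1e, and the other 6 had 19.1 to 105 CPM. Without these mice its log2 fold change was 0.55 (adjusted p = 0.529). Mup10, a major urinary protein, was at −1.97 ± 0.73 and at −0.34 without mouse 42, and Slco1a1, an organic anion importer of male liver, was at −2.56 ± 0.80 and at −1.79 without mouse 44, both no longer called. Phf11c was at −1.76 ± 0.50, with 94.2 CPM in sh-Glud1 mouse 58, and at −0.55 without it, no longer called. Other low genes did not depend on any 1 mouse. Pnpla3, a lipid droplet protein, was at 1.21 to 6.18 CPM (median 2.58) in sh-Gls2 livers and 0.635 to 29.8 CPM (median 11.6) in sh-Glud1 livers (−2.13 ± 0.71, adjusted p = 0.013), and Ces1f, a carboxylesterase whose family shares reads, at 12.9 to 151 CPM (median 69.9) in sh-Gls2 livers and 49.7 to 447 CPM (median 248) in sh-Glud1 livers (−1.698 ± 0.39, adjusted p = 0.00045). Nfe2, a transcription factor of blood cells, was at −1.53 ± 0.42 (adjusted p = 0.0029). The calls of Pnpla3, Ces1f and Nfe2 were lost among mice numbered 45 and above. Hnf4aos, an antisense transcript of the hepatocyte factor gene Hnf4a, had ranges that did not overlap (−1.69 ± 0.19, adjusted p = 3.0e-10), and since the counting strand was not given its reads and those of Hnf4a may not be told apart.

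Counts of genes with a sex bias in liver changed with these mice. Of 31 tested male-biased genes 8 were lower and 1 higher (median −0.62). The share lower, 25.8%, is near the 21.1% of all tested genes. Without mice 42 and 44 none was lower and 7 were higher (median 0.53). Without mouse 42 alone 5 were lower, and 1 without mice 42, 44, 58 and 65. Hsd3b5, a steroid reductase of male liver, was at 0.0552 to 1.16 CPM (median 0.316) in sh-Gls2 livers. In sh-Glud1 livers it was at 53.7 CPM in mouse 44, 27.3 CPM in mouse 42 and no more than 0.672 CPM in the others. Its log2 fold change was −4.66 ± 0.97 (adjusted p = 0.00012) and turned to 0.43 (adjusted p = 0.814) without these mice. Of 26 female-biased genes 7 were higher and 2 lower, shares of 26.9% and 7.69% beside 19.5% and 21.1% of all tested genes. Without mice 42, 44, 58 and 65, 1 was lower. Without mice 42 and 44, 2 were higher, and 4 without sh-Gls2 mouse 50.

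Of 13 tested genes of small RNA processing, through which hairpins act, 3 were lower and none higher. The lower share, 23.1%, is near the 21.1% of all tested genes, and 1 was lower without mice 42, 44, 58 and 65. Prkra, a partner of Dicer, was at 7.64 to 11.8 CPM (median 9.98) in sh-Gls2 livers and 9.98 to 15.7 CPM (median 13.1) in sh-Glud1 livers (−0.40 ± 0.08, adjusted p = 0.00015). Dicer1, which cuts hairpins, was at 44.2 to 52.9 CPM (median 50.5) in sh-Gls2 livers and 46.7 to 63.8 CPM (median 55.9) in sh-Glud1 livers (−0.16 ± 0.06, adjusted p = 0.023). It did not pass without sh-Gls2 mouse 39 or 49 or sh-Glud1 mouse 44 or 58. Drosha, the nuclear enzyme that cuts microRNA precursors, was at −0.21 ± 0.09 (adjusted p = 0.048) and lost its call without any of 12 single libraries.

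The WT livers, from other mice under the same vectors, gave 3946 called genes (29.6%), 2062 (15.5%) higher and 1884 (14.2%) lower under sh-Gls2, with 5316 (39.9%) at an unadjusted p below 0.05. A difference of at least 2-fold was called upward for 361 genes (2.71%) and downward for 84 (0.631%) in WT livers. Of the 5395 genes called in OTC livers, 5031 (93.3%) had the same sign in WT livers, and 2826 were called in both with the same sign. That is 52.4% of the OTC calls and 71.6% of the WT calls, and 5 genes were called with opposite signs. Across the 13311 genes, which are not independent, the log2 fold changes of the strains had a Pearson r of 0.749. Proteasome genes had the same counts in WT livers, with 31 higher and 1 lower (median 0.60). In WT livers Shfm1 was at −1.24 ± 0.07, Slc20a2 at −1.38 ± 0.07, and Slpi at 3.31 ± 0.34. Of 48 interferon-stimulated genes 39 were higher in WT livers, of 42 cell cycle genes 27 and of 30 macrophage markers 21. Of 60 ribosomal protein genes 6 were lower in WT livers, of 10 urea cycle genes 3 and of 24 cholesterol genes 14. These counts stand against 15.5% of all tested genes higher and 14.2% lower in WT livers. The OTC minus WT difference was called for 2 of these ribosomal protein genes, 1 interferon-stimulated gene and 1 cell cycle gene. It was called for none of these urea cycle, cholesterol or macrophage genes.

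**Figure D5:**
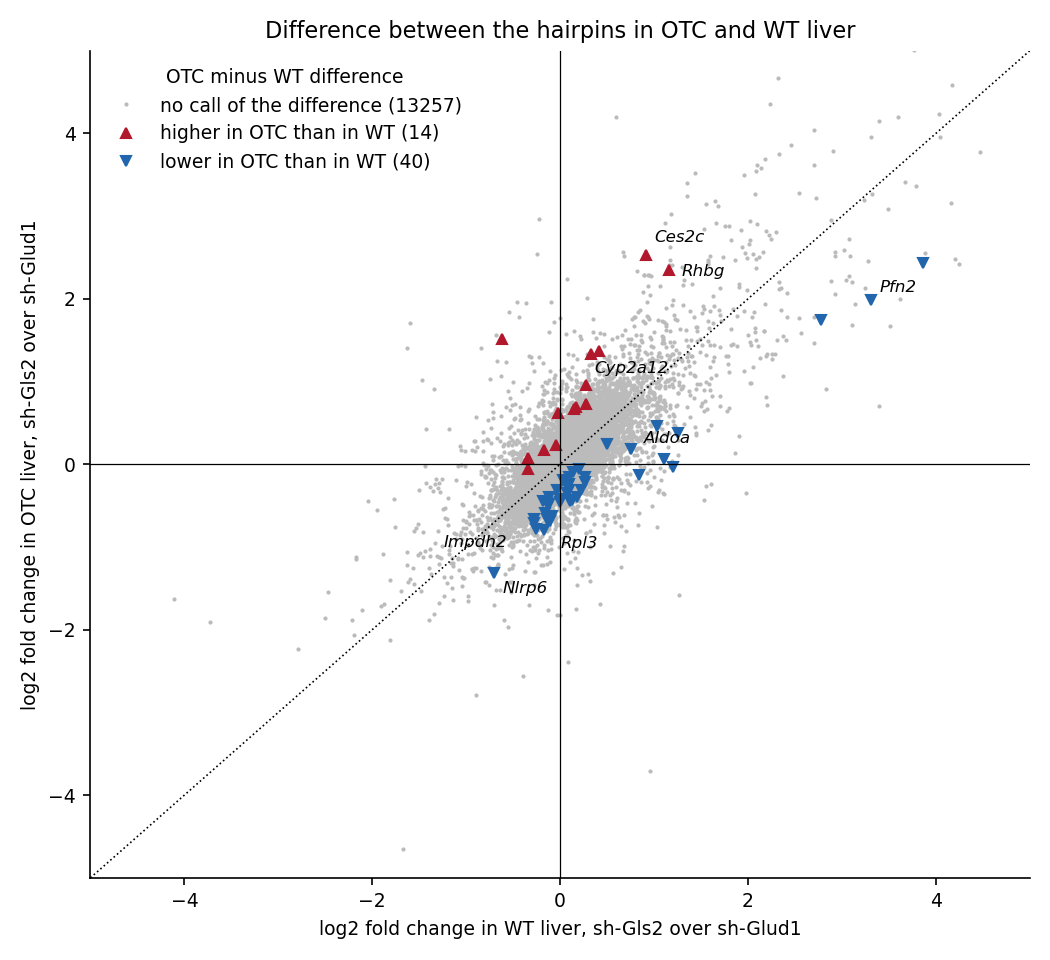
Log2 fold change of sh-Gls2 over sh-Glud1 in OTC livers (vertical axis) against that in WT livers (horizontal axis) for the 13311 tested genes. Upward triangles mark the 14 genes with a higher and downward triangles the 40 genes with a lower value in OTC than in WT livers, the dotted line marks equal values, and 7 genes lie outside the axes, which end at 5. Points lie along the dotted line, and Ces2c, Rhbg and Cyp2a12 lie above it and Pfn2, Aldoa and Nlrp6 below.

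The difference itself, OTC minus WT, was called for 54 genes (0.406%), 14 (0.105%) with a higher and 40 (0.301%) with a lower value in OTC, and 1805 (13.6%) had an unadjusted p below 0.05. This count ran between 27 and 99 under the other tools, filters and groups tried. Rhbg differed by 2.35 ± 0.20 in OTC livers and 1.16 ± 0.17 in WT livers (difference 1.19 ± 0.26, adjusted p = 0.018). Ces2c, a carboxylesterase whose family shares reads, was at 32.3 to 109 CPM (median 61.2) in sh-Gls2 livers and 4.55 to 17.6 CPM (median 11.2) in sh-Glud1 livers, and differed by 2.54 ± 0.27 in OTC and 0.92 ± 0.24 in WT livers (adjusted p of the difference = 0.019). Cyp2a12 was at 0.96 ± 0.09 in OTC and 0.28 ± 0.09 in WT livers (adjusted p = 0.0095), and E2f1 at 1.33 ± 0.18 and 0.33 ± 0.16 (adjusted p = 0.037). These differences were larger in OTC than in WT livers. ND4L, a mitochondrial subunit of complex I, was at 0.67 ± 0.08 and 0.15 ± 0.08 (adjusted p = 0.021), and Rnf44, a RING finger gene, at 0.24 ± 0.04 and −0.04 ± 0.04 (adjusted p = 0.015).

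Other genes had a lower value in OTC than in WT livers. Pfn2, a profilin that binds actin, was higher in both strains, by 1.99 ± 0.17 in OTC and 3.31 ± 0.18 in WT livers (difference −1.33 ± 0.24, adjusted p = 0.0095). Aldoa, a glycolytic aldolase, was at 0.18 ± 0.08 in OTC livers, where it did not pass the test (adjusted p = 0.075), and at 0.76 ± 0.08 in WT livers (adjusted p of the difference = 0.0095). Impdh2, an enzyme of guanine nucleotide synthesis, was at −0.78 ± 0.07 and −0.26 ± 0.07 (adjusted p = 0.0095), and Nlrp6 at −1.31 ± 0.09 and −0.70 ± 0.08 (adjusted p = 0.0095). Rpl3 was at −0.79 ± 0.09 and −0.18 ± 0.08 (adjusted p = 0.0095), and Rpl10 at −0.66 ± 0.06 and −0.28 ± 0.06 (adjusted p = 0.016). For Gls2 and Glud1 themselves no difference between the strains was called (adjusted p = 0.929 and 0.813), with differences of −0.04 ± 0.15 and −0.11 ± 0.17.

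Within a hairpin group no relation between the level of the target and that of the strongest genes passed the correction. Of 32 relations between the log2 level of the target and that of the 8 highest or 8 lowest named genes, none passed an adjusted p of 0.05 by permutation of Pearson's r, and 2 had an unadjusted p below it. In the 8 sh-Glud1 livers Slpi and Glud1 had a Pearson r of 0.803 (exact permutation p = 0.0151, adjusted p = 0.482) and a Spearman rho of 0.786 (exact permutation p = 0.0279, adjusted p = 0.733). The r was 0.702 without the 2 livers farthest from the median of Glud1. In the 10 sh-Gls2 livers Mup10 and Gls2 had a Pearson r of −0.647 (permutation p = 0.048, adjusted p = 0.716) and a rho of −0.527 (permutation p = 0.123, adjusted p = 0.939), with r at −0.668 without the 2 farthest livers.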

How the data were processed

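Total RNA of 55 livers was isolated with the MagMAX kit and made into libraries with the KAPA Stranded mRNA-Seq kit and PCR, per the labels' protocols. CASAVA 1.8.2, FastQC and the genome GRCm38 are named per the submitters' processing notes, and the sources used here do not give the aligner, counter, strand setting or annotation. The deposited tables hold a whole-number count per gene and library and the authors' TPM, which are scaled to gene length and library total. Of 24475 gene symbols, 4775 had no count, and 13311 passed edgeR's filterByExpr (minimum count 10, minimum total 15). Value columns were matched to samples by the labels. The mouse number of 1 OTC control column matches no sample title, and that column was used by its strain and vector alone.

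Counts were fitted over all 55 libraries, as 6 groups, with edgeR 4.0.16 (TMM scaling, quasi-likelihood test, R 4.3.3), and p-values were adjusted by Benjamini and Hochberg over all tested genes. A gene is called at an adjusted p under 0.05. Log2 fold changes carry a standard error derived from the test, as their absolute value divided by the square root of its F statistic. Each library was a separate mouse per its label, and among 73 pairs of libraries of a group no counts were alike within sampling noise (smallest chi-square per degree of freedom 21.3). Alternatives used DESeq2 1.42.0, limma 3.58.1 on log2(TPM + 1) and log2(TPM + 0.1) over genes with a mean TPM of at least 1, other filters and scalings, mouse number, and fewer libraries. Reads were amplified by PCR without molecular identifiers, so precision from depth covers counting error only. On simulated data for the OTC comparison over 13208 genes, the edgeR fit recovered 92% of genes changed 2-fold and 74% of those changed 1.5-fold. It gave 12 false among 178 calls. The simulation changed 100 genes at each fold and drew genes independently, without mice that differ in whole sets of genes. In the data 40.5% of tested genes were called, so these rates may not hold there.

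The genes and lists were chosen with earlier results of these data known. Named genes were Gls2, Glud1 and Otc, the 10 called genes farthest up and the 10 farthest down in fold change (mean log2 CPM of 1 or more, no predicted names), the 5 smallest adjusted p-values in each direction, up to 4 per gene list, and 5 in each direction for OTC minus WT. Gm3219, Psmd3, Glul, Hmgcs1, Cxcl10, Cd163, Acta2, Krt19, Alb, Stat2, Rrm1, Mcm7, Ass1, Asl, Onecut2 and Cyp27a1 were added after their values were seen. Some genes of these sets are not reported here. Gene positions are from GENCODE M21 (GRCm38) and promoters from RefSeq (GRCm38.p6).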

Additional observations from a re-analysis of the deposited data

Results flagged for a closer look

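Single livers stood apart from the rest of their group for 15 of 250 pairs of a reported gene and a group (6%), by Dixon's test of the gap to the nearest other liver, and chance alone gives about 1 in 20. Sh-Glud1 mouse 58 did so for 5 genes, lowest for Ly6d (0 CPM), Lect2 (21.9 CPM), Ifi27l2a (0.569 CPM) and Pkhd1 (2.98 CPM) and highest for Phf11c (94.2 CPM). Sh-Glud1 mouse 65 was highest for Slc25a13 (332.8 CPM) and Rrm1 (17.6 CPM), mouse 33 for Gsta1 (47.9 CPM) and Gss (74.8 CPM) and mouse 42 for Otc (74.5 CPM). Among sh-Gls2 livers mouse 4 was highest for Arg1 (1571 CPM) and Rpl3 (403.6 CPM), mouse 74 for Ggt1 (7.66 CPM) and mouse 21 for Aldoa (113.8 CPM), and mouse 39 was lowest for Rspo3 (5.15 CPM).

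The difference between the hairpins was itself different in OTC and WT livers, by the interaction test in edgeR, for 12 of the named genes. Of these, 5 in each direction were named because this same test gave them the smallest adjusted p. The number 12 therefore does not show how common such differences are. Over all tested genes the difference was called for 54 (0.406%). The log2 fold change of sh-Gls2 over sh-Glud1, taken with its sign, was higher in OTC than in WT livers for Ces2c (1.62), Rhbg (1.19), E2f1 (0.999), Cyp2a12 (0.68), ND4L (0.52) and Rnf44 (0.28). It was lower in OTC livers for Pfn2 (−1.33), Rpl3 (−0.61), Nlrp6 (−0.61), Aldoa (−0.58), Impdh2 (−0.52) and Rpl10 (−0.38).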

How the results depend on the processing

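Leaving out each library in turn gave 5030 to 5456 called genes between the hairpins in OTC liver, 2425 to 2625 higher and 2589 to 2851 lower, and 432 to 507 at least 2-fold higher. DESeq2 size factors gave 5357 called genes, no filter on low counts 5324, a CPM filter 5168, DESeq2's Wald test 5429, only the compared groups 4884, mouse number as a covariate 5503 and as a factor 5455. Over 11310 genes of the deposited TPM, limma called 4521 with a pseudocount of 1 (41.6% of them higher, against 48.1% with counts). With a pseudocount of 0.1 it called 4465 (41.7%). These TPM fits gave 137 and 229 genes at least 2-fold higher and 38 and 57 at least 2-fold lower, and no filter gave 180 at least 2-fold lower. Mice numbered 45 and above gave 3838 called genes with 713 at least 2-fold higher, and mice numbered 44 and below 2439, with 1203 higher and 1236 lower. Without sh-Glud1 mice 58 and 65 the count was 4791, without mice 42 and 44 it was 4910, and without all 4 it was 3557, with 1723 higher and 1834 lower. For OTC minus WT, no filter gave 27 genes (8 higher, 19 lower), DESeq2 99 (38 and 61), the compared groups alone 86 (32 higher), TPM plus 1 98 (82 lower) and TPM plus 0.1 90 (78 lower). Serpina1e reversed to a log2 fold change of 0.55, Hsd3b5 to 0.43 and Mup10 to 0.23 without mice 42 and 44, and Serpina1e to 0.58 and Hsd3b5 to 0.37 without mice 42, 44, 58 and 65. The cause was not tested. Of 125 reported genes tallied, 118 were called, of which 109 kept their direction and call without each library in turn. Under every alternative that tested them, 82 did so. Some genes of low level, such as Mki67 and Tpx2, were not in the TPM fits. Hpx, C2, C1s1, Blnk, Slc10a1, Abcb4, Cd36 and Fh1 were not in this tally. No paired analysis was possible because the groups compared share no mouse number. Genes of few counts, such as those of the cell cycle, are limited by depth.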

Other observations

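Of 27 tested acute phase genes, 8 were higher and 4 lower under sh-Gls2, against 19.5% and 21.1% of all tested genes. Orm2, an acid glycoprotein made in inflammation, was at 10.3 to 56.4 CPM (median 30.4) in sh-Gls2 livers and 1.85 to 12.4 CPM (median 5.49) in sh-Glud1 livers (2.21 ± 0.38, edgeR adjusted p = 6.5e-06), and Hpx, the carrier of haem in blood, was higher by 0.57 ± 0.11 (adjusted p = 5.2e-05). Of 35 complement and coagulation genes 8 were higher, with C2 at 0.75 ± 0.10, and 9 lower, with C1s1 at −0.57 ± 0.07, shares of 22.9% and 25.7% that lie near those of all genes. Lcn2, an iron-binding protein of neutrophils and stressed hepatocytes, was at 14.1 to 39.7 CPM (median 21.5) in sh-Gls2 livers and 1.79 to 12.3 CPM (median 5.16) in sh-Glud1 livers (2.08 ± 0.64, adjusted p = 0.0077). It did not pass without sh-Glud1 mice 42, 44, 58 and 65. It was the 1 called gene of 6 neutrophil markers, whose sums were 18.4 to 45.4 CPM in sh-Gls2 livers and 5.99 to 18.1 CPM in sh-Glud1 livers. Of lymphocyte markers 3 of 14 T cell genes and 1 of 7 B cell genes, Blnk (2.18 ± 0.34), were higher and none lower. The T cell count was 1 without sh-Gls2 mouse 24, 49, 60 or 73 and 7 without sh-Glud1 mouse 23, and 0 without mice 42, 44, 58 and 65. Of 7 erythroid genes Klf1, an erythroid transcription factor, was lower (−1.52 ± 0.25, adjusted p = 3.0e-06), and the sums were 209 to 388 CPM in sh-Gls2 livers and 246 to 1029 CPM in sh-Glud1 livers. The part of these cells in the results was not tested.

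Of 31 lysosome and V-ATPase genes 13 were higher and 5 lower, with 1 lower without sh-Glud1 mice 42, 44, 58 and 65. Ctsd, a lysosomal protease, was at 398 to 499.8 CPM (median 456) in sh-Gls2 livers and 251 to 332 CPM (median 291) in sh-Glud1 livers, with no overlap (0.64 ± 0.07, adjusted p = 3.5e-11). Of 34 genes of the ATF4 and amino acid response 10 were higher, with the stress factor Atf3 at 1.33 ± 0.20, and 6 lower, with Atf5 at −0.69 ± 0.12, and without the 4 mice 6 were higher. Of 24 p53 targets 4 were higher and 2 lower, and 8 were higher without sh-Glud1 mouse 33 or 71. Of 26 chaperones of the endoplasmic reticulum 1 was higher and 2 lower. Of 13 polyamine genes 3 were higher and 2 lower. The shares of p53, chaperone and polyamine genes lie near or under those of all genes, 19.5% higher and 21.1% lower, and without the 4 mice 2 p53 targets and 1 polyamine gene were higher.

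Lists of liver metabolism held calls in both directions, against 19.5% of all tested genes higher and 21.1% lower. Of 25 bile acid genes 8 were lower, with the bile acid importer Slc10a1 at −0.66 ± 0.12, and 3 higher, with the phospholipid exporter Abcb4 at 0.76 ± 0.11. Without sh-Glud1 mouse 23, 5 were lower. Of 27 genes of glycolysis and gluconeogenesis 5 were higher and 8 lower, of 24 of lipogenesis 2 and 3, and of 34 of fatty acid oxidation 2 and 6. Cd36, a fatty acid importer, was higher by 2.08 ± 0.41 (adjusted p = 5.3e-05). Of 27 genes of the tricarboxylic acid cycle 2 were higher and 7 lower, with fumarase gene Fh1 at −1.05 ± 0.15 (adjusted p = 1.2e-07). Of 21 periportal genes 4 were higher and 7 lower. Of 17 growth hormone axis genes 3 were lower, with Igfals, the stabilizer of IGF1 in blood, at −0.50 ± 0.13. Of 25 glucocorticoid genes 2 were higher and 1 lower, and of 20 clock genes 2 were higher. Without sh-Glud1 mice 42, 44, 58 and 65 the lower genes numbered 5 for glycolysis, 3 for fatty acid oxidation, 4 for periportal genes, 0 for glucocorticoid genes and 1 for the growth hormone axis. The higher genes then numbered 1 for lipogenesis, 0 for fatty acid oxidation, 0 for glucocorticoid genes and 1 for clock genes.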
